A study of Mus musculus with 6 samples.

Results

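The ribosome biogenesis module followed here held 36 genes: Myc and 35 genes for RNA polymerase I, nucleolar proteins, small nucleolar ribonucleoproteins (snoRNPs) and factors that mature the ribosomal subunits. Its members were the rows of the deposited table with these 36 gene symbols, and all 36 were found among the 32544 rows. Polyadenylated RNA was read in proximal tubule segments S2 and S3 of C57Bl/6 mice, described as control mice, 24 h after 1 injection, at 3 mg/kg, of aristolochic acid I (AA) or of the solvent dimethyl sulfoxide (DMSO). Each group had 3 libraries, and 5 to 10 tubules dissected by hand were pooled from each kidney. The labels name no genetic alteration, age or sex. Whether the replicates are separate animals is not stated, so p-values measure only the spread between these libraries. Aristolochic acid I, a toxin of Aristolochia plants, forms bulky DNA adducts, and the series sets transcription after it against that after the solvent.

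Ribosomes are assembled in the nucleolus. RNA polymerase I transcribes the precursor of the large ribosomal RNAs there, snoRNPs guide its chemical modification, and many transient factors cut it and fold it with ribosomal proteins into the small and the large subunit. Myc is a transcription factor that binds DNA with its partner Max and is known to drive genes of every step. When ribosome assembly is disturbed, free ribosomal proteins can bind Mdm2 and spare p53 from degradation, which ties the nucleolus to the p53 response. Ribosomal RNA itself and snoRNAs carry no poly(A) tail and were not measured.

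Reads counted per library ran from 13304877 to 31136251, and 14311 genes that reached 1 CPM (the unit of reads scaled to library size) in 3 or more libraries were tested with limma's moderated test on log2(CPM + 1), adjusted after Benjamini and Hochberg over all of them. Calls were made where the adjusted p was under 0.05. Differences are given as log2 ratios, the fold change of AA over DMSO on the log2(CPM + 1) scale. Their median over all tested genes was 0.21, so that a value of 0.21 is the midpoint of these data. Equalising the library medians lowered the median of all genes by 0.23, quantile normalization by 0.21 and TMM factors by 0.20. For 40 of 14311 tested genes, DMSO replicates 1 and 2 stood apart from the other 4 libraries by over 2 on the log2 scale. At so small a share, the 0 of 36 members among them says nothing about the members. A fit that gives DMSO replicates 1 and 2 their own term (the library-set term) is therefore given beside the results. In it the AA effect rests on DMSO replicate 3 as its only control. Markers of the proximal tubule summed to 12521 to 16801 CPM in AA libraries and 22440 to 29150 CPM in DMSO libraries. Of the 12 tested 1 was higher in AA and 4 were lower, against 22.3% and 8.66% of all tested genes. The uptake receptor gene Lrp2, at 2323 to 3440 CPM in AA and 6251 to 8476 CPM in DMSO, was well detected in all 6 libraries.

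Most genes of the module rose in AA tubules. Of the 36 members, all of which passed the filter on low values, 27 were higher and 0 were lower, while 9 missed the threshold. Of all tested genes 22.3% were called higher and 8.66% lower. At an unadjusted p under 0.05, 0 members were lower, and limma-voom on recovered reads called 27 higher and 0 lower. The median log2 ratio of the members was 0.76, or 0.55 above the median of all tested genes, and the members ranged from 0.11 for Nhp2 to 2.40 for Myc. The members together took 2202, 2166 and 2352 CPM in AA replicates 1 to 3, against 1161, 1294 and 1309 CPM in DMSO replicates 1 to 3. In 30 members every AA library lay above every DMSO library, which was so for 33.4% of all tested genes. A change of at least 2-fold was called for 9 members, and the share of all tested genes with such a call was not counted. Over all tested genes the 75th and 95th percentiles of the log2 ratio were 0.56 and 1.29. In bulk tubule RNA, a higher share of RNA per cell and a change in which cells were sampled cannot be told apart.

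The count of members that passed depended on the scaling and on the control libraries. With library medians equalised 18 members were higher, against 12.1% of all tested genes (1727 genes higher and 2321 lower in all), and with the library-set term 13 were higher, against 7.39%; 0 were lower in both. The 11 members called under every alternative tried were Myc, Polr1c, Rrn3, Ncl, Ddx21, Gnl3, Mybbp1a, Nop56, Nop58, Utp15 and Nop14. Log2 ratios stayed above 0 under every alternative for 33 members; those of Polr1a, Nhp2 and Rcl1, which did not pass, fell below 0 when libraries were rescaled. The shares of all tested genes that kept a call, or a log2 ratio above 0, under every alternative were not counted. In the plot of fold changes by role, the black ticks show each member with library medians equalised.

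**Figure D1:**
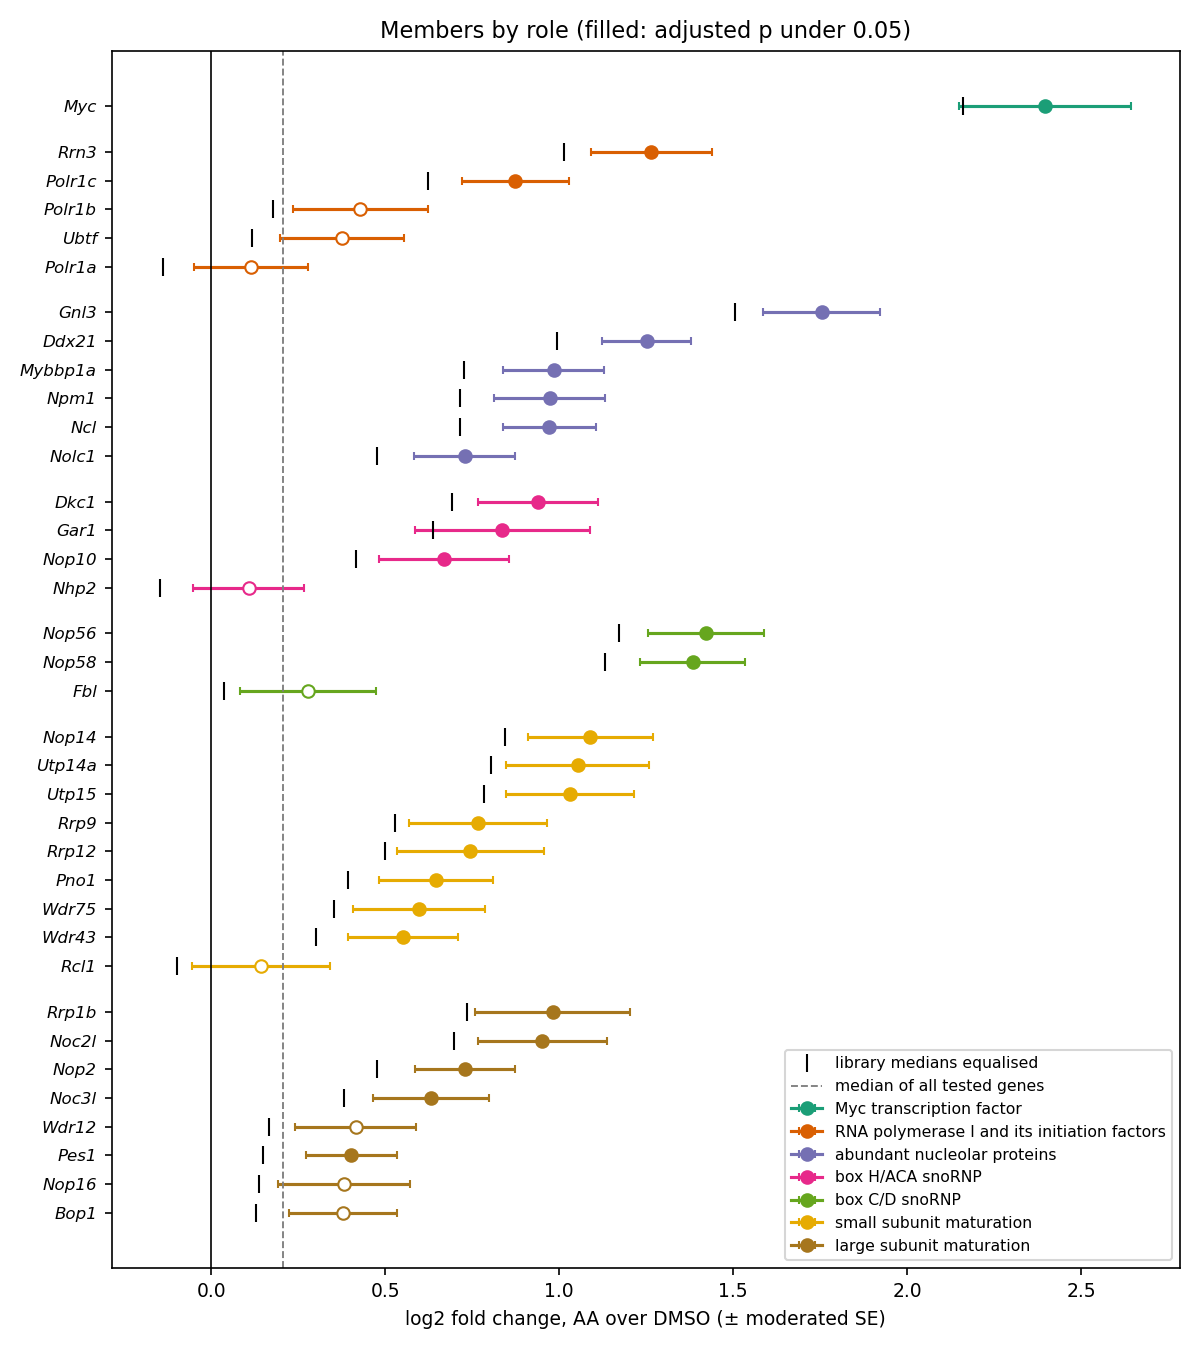
Log2 ratio of each member, AA over DMSO (horizontal axis, log2 of CPM + 1), with its moderated SE, grouped by role and colour; filled points were called at adjusted p under 0.05, open points were not, black ticks give the value with library medians equalised, and the dashed line marks the median of all tested genes at 0.21. Myc stands at 2.40, Gnl3 leads the nucleolar proteins at 1.75, and Polr1a, Nhp2 and Rcl1 lie below the dashed line.

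Myc, the transcription factor of the module, had the largest fold change of the 36 members. Myc (chr15:61985391-61990374, plus strand, mm10, a protein-coding gene in GENCODE M21) had 36.4, 24.3 and 39.1 CPM in AA replicates 1 to 3, against 5.69, 3.92 and 6.89 CPM in DMSO replicates 1 to 3. All 3 AA libraries were well above the DMSO libraries, and AA replicate 2 was the lowest of them. The means were 33.3 ± 7.89 CPM in AA and 5.50 ± 1.50 CPM in DMSO (SD, n = 3 each), a log2 ratio of 2.40 (SE 0.25, limma adjusted p = 8.86e-05). Against DMSO replicate 3, in the fit with the library-set term, it was 2.09 (adjusted p = 0.00292).

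Among partners and relatives of Myc 15.4% were called higher, against 22.3% of all tested genes. The list is too small to read a result from that gap. Of 13 tested genes of the Myc and Max network, 2 were higher and 0 were lower (0 at an unadjusted p under 0.05 as well, and 0 in voom), with a median log2 ratio of 0.29. Under equalised library medians the balance turned, to 0 higher and 2 lower, Mlx (adjusted p = 0.0274) and Mlxipl (adjusted p = 0.0389), which belong to the branch of the network around Mlx. Max, the obligate partner of Myc, had 33.7 ± 6.09 CPM in AA and 23.2 ± 2.18 CPM in DMSO, a log2 ratio of 0.51 (SE 0.18, adjusted p = 0.0472), and this call was lost whichever library was left out. Mxd4, which competes with Myc for Max, had a log2 ratio of 0.48 (SE 0.14, adjusted p = 0.0264), lost in 5 of the 6 fits that leave out a library and kept only without DMSO replicate 2. Both calls were also lost with library medians equalised (adjusted p = 0.253 for Max and 0.233 for Mxd4). The Myc relative Mycn, at 2.66 to 4.04 CPM in AA libraries and 0.377 to 3.32 CPM in DMSO libraries, had a log2 ratio of 0.94 and did not pass (adjusted p = 0.0968). It passed in voom (1.90, adjusted p = 0.0426) and without DMSO replicate 3 (1.44, adjusted p = 0.00622), and was -0.07 with the library-set term. Mycl did not pass (log2 ratio 0.30, adjusted p = 0.505) and was -0.47 with the library-set term.

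Myc and Max bind the sequence CACGTG, known as an E-box, and promoters of the members were searched for it. RefSeq windows (GRCm38.p6) of 300 bases, from 250 before to 50 after an annotated start, were matched by symbol for 31 members, while Npm1, Fbl, Rrp12, Bop1 and Myc were not matched. CACGTG reads the same on both strands. It occurred in windows of 6 of the 31 genes (19.4%), against 1176 of 10414 tested genes with a window (11.3%). Counted by window, it was in 6 of 40 windows of members (15.0%) and in 2349 of all 32851 windows (7.15%). The 6 genes were Rrn3, Nop2, Pes1, Pno1, Mybbp1a and Wdr43, with log2 ratios of 1.26, 0.73, 0.40, 0.65, 0.98 and 0.55. Gnl3, Ddx21, Nop56 and Nop58, each with a larger log2 ratio than at least 5 of these 6, held no match in this window.

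The sequences of Rrn3 and Nop2 are shown because their matches lie before the start site. Those of Gnl3 and Ddx21 stand beside them as members with large fold changes and no match. Each is the run of 250 bases before the RefSeq start, 5′ to 3′ on the strand of the gene, with CACGTG in capitals. Rrn3 (chr16:13780449-13780698, plus strand) has matches that begin at -215 and -48 from the start, and Nop2 (chr6:125131633-125131882, plus strand) has its match at -60. Gnl3 is taken from chr14:31019132-31019381 on the minus strand and Ddx21 from chr10:62602299-62602548 on the minus strand.
Rrn3: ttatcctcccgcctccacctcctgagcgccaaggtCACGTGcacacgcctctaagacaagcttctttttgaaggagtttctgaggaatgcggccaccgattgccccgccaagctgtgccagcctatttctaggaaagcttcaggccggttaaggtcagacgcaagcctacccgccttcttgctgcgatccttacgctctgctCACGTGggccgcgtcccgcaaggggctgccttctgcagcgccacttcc
Nop2: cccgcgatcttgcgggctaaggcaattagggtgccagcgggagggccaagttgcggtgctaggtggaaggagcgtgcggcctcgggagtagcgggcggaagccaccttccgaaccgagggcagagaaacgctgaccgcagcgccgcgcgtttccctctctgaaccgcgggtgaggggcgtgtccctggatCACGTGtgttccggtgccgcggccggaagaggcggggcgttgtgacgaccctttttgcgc
Gnl3: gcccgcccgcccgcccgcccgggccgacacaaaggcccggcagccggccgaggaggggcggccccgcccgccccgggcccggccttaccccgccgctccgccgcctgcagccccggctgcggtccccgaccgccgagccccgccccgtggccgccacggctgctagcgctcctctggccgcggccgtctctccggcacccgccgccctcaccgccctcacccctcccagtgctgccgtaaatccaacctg
Ddx21: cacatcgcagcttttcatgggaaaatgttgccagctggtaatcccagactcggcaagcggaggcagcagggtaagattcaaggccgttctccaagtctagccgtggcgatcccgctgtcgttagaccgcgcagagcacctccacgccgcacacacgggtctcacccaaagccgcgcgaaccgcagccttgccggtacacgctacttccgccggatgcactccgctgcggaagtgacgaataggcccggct

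In the other 4 genes the match began after the annotated start, at base 3 of the transcript for Pes1, 18 for Wdr43, 38 for Pno1 and 41 for Mybbp1a. Stretches of 30 bases around these matches are shown so that their flanks can be compared with those of Rrn3 and Nop2, again with CACGTG in capitals. The stretch of Pes1 is chr11:3963965-3963994 on the plus strand, that of Wdr43 is chr17:71616220-71616249 on the plus strand, that of Pno1 is chr11:17211540-17211569 on the minus strand, and that of Mybbp1a is chr11:72441347-72441376 on the plus strand.
Pes1: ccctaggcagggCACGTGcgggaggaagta
Wdr43: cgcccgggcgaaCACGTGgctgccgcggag
Pno1: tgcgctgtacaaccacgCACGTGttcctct
Mybbp1a: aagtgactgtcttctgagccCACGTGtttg

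Genes of RNA polymerase I were divided: 2 of 5 members were higher and 3 did not pass. Rrn3, the factor that makes the polymerase competent to start, had 48.6, 66.9 and 63.5 CPM in AA replicates 1 to 3, against 26.6, 20.6 and 25.3 CPM in DMSO replicates 1 to 3. Every AA library was above every DMSO library, with means of 59.7 ± 9.75 CPM in AA and 24.1 ± 3.17 CPM in DMSO and a log2 ratio of 1.26 (SE 0.17, n = 3 each, limma adjusted p = 0.000527). Polr1c, a subunit that RNA polymerases I and III share, had 40.8, 35.6 and 38.3 CPM in AA and 19.9, 21.7 and 19.6 CPM in DMSO. Its groups did not overlap either, and the log2 ratio was 0.87 (SE 0.15, adjusted p = 0.00210).

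The catalytic core and the DNA-bending factor of the polymerase did not pass with all 6 libraries. Polr1a, the catalytic subunit, had 43.7, 52.6 and 54.2 CPM in AA and 39.6, 55.0 and 44.9 CPM in DMSO. These ranges overlapped, and the log2 ratio was 0.11 (SE 0.16, adjusted p = 0.625). Polr1b, which forms the catalytic core with it, had 29.0, 41.4 and 35.9 CPM in AA and 22.3, 23.8 and 32.4 CPM in DMSO. The overlap came from DMSO replicate 3, which was above AA replicate 1, and the log2 ratio was 0.43 (SE 0.19, adjusted p = 0.114). Without DMSO replicate 3 Polr1b passed (0.59, limma adjusted p = 0.0489). Ubtf, which bends ribosomal DNA and recruits the polymerase, had 162, 136 and 159 CPM in AA and 90.9, 151 and 117 CPM in DMSO. DMSO replicate 2 lay within the AA range, and the log2 ratio was 0.37 (SE 0.18, adjusted p = 0.131). Without DMSO replicate 2 Ubtf passed (0.56, limma adjusted p = 0.0275).

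All 6 abundant nucleolar proteins were higher in AA. Gnl3, which encodes the GTP-binding protein nucleostemin, had 50.6, 47.0 and 60.2 CPM in AA replicates 1 to 3, against 15.6, 12.9 and 16.2 CPM in DMSO replicates 1 to 3. The lowest AA library was far above the highest DMSO library, and the log2 ratio was 1.75 (SE 0.17, n = 3 each, adjusted p = 6.41e-05). Ddx21, an RNA helicase of ribosomal RNA transcription and processing, had 125, 135 and 148 CPM in AA and 55.4, 58.3 and 55.2 CPM in DMSO. DMSO libraries differed little among themselves, and the log2 ratio was 1.25 (SE 0.13, adjusted p = 8.86e-05). Ncl, which encodes nucleolin, a binder of ribosomal RNA precursors, had 452, 391 and 432 CPM in AA and 206, 203 and 240 CPM in DMSO, with no overlap and a log2 ratio of 0.97 (SE 0.13, adjusted p = 0.000546).

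The remaining nucleolar proteins lay close to Ncl. Mybbp1a, a nucleolar protein named for binding Myb, had a log2 ratio of 0.98 (SE 0.14, adjusted p = 0.000820). Npm1, the histone and ribosome chaperone nucleophosmin, had 165 ± 7.36 CPM in AA and 84.9 ± 17.9 CPM in DMSO, a log2 ratio of 0.97 (SE 0.16, adjusted p = 0.00143). Nolc1, a chaperone of snoRNPs, had a log2 ratio of 0.73 (SE 0.15, adjusted p = 0.00413). With the library-set term Npm1 and Nolc1 no longer passed (adjusted p = 0.0526 and 0.0561). Npm1 has processed pseudogene copies in the mouse, between which reads can be shared, so its level is uncertain to that extent.

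**Figure D2:**
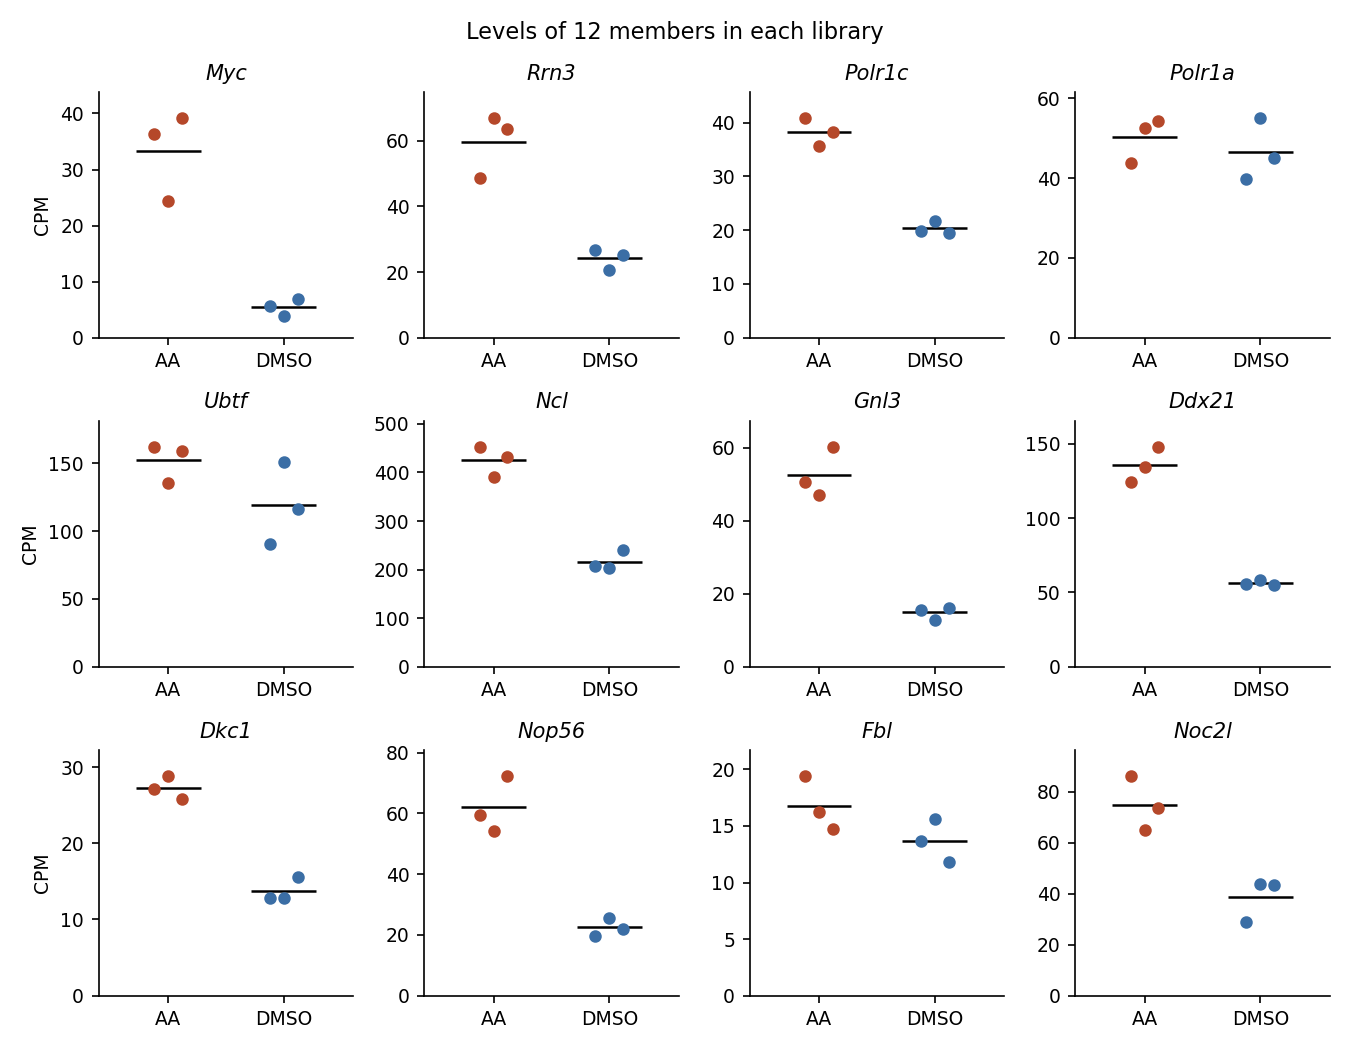
Levels of 12 members in CPM (vertical axes from 0, each with its own scale), 1 point per library (replicates 1 to 3 from left to right) and a line at the mean, AA left and DMSO right. The groups do not overlap for Myc, Rrn3, Polr1c, Ncl, Gnl3, Ddx21, Dkc1, Nop56 and Noc2l, and overlap for Polr1a, Ubtf and Fbl.

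Among proteins of the box C/D snoRNPs, which guide methylation of ribosomal RNA, the scaffold genes rose and the methyltransferase gene did not pass. Nop56 had 59.5, 54.3 and 72.2 CPM in AA replicates 1 to 3, against 19.8, 25.6 and 22.0 CPM in DMSO replicates 1 to 3. Nop58, with which Nop56 pairs on the guide RNA, had 58.9, 63.3 and 68.1 CPM in AA and 24.6, 20.9 and 25.8 CPM in DMSO. Neither gene's groups overlapped, and the log2 ratios were 1.42 (SE 0.17, adjusted p = 0.000195) and 1.38 (SE 0.15, adjusted p = 0.000124, n = 3 each). Fbl, which encodes the methyltransferase fibrillarin, had 19.4, 16.3 and 14.7 CPM in AA and 13.6, 15.6 and 11.8 CPM in DMSO. Its ranges overlapped, and the log2 ratio was 0.28 (SE 0.20, adjusted p = 0.301).

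Of the 4 proteins of box H/ACA snoRNPs, which guide pseudouridylation, 3 were higher. Dkc1, the pseudouridine synthase dyskerin, had 27.1, 28.8 and 25.8 CPM in AA replicates 1 to 3, against 12.8, 12.9 and 15.6 CPM in DMSO replicates 1 to 3. Its groups were clearly apart, and the log2 ratio was 0.94 (SE 0.17, adjusted p = 0.00267, or 0.0757 with the library-set term). Nop10, a small core protein, had 42.1, 49.9 and 44.7 CPM in AA and 36.6, 27.3 and 22.4 CPM in DMSO, a log2 ratio of 0.67 (SE 0.19, adjusted p = 0.0207). Gar1, another core protein, had 5.71, 5.56 and 5.24 CPM in AA and 1.88, 2.76 and 3.45 CPM in DMSO, a log2 ratio of 0.84 (SE 0.25, adjusted p = 0.0280). AA values were above DMSO values for both, but both calls depended on single libraries. That of Nop10 was lost without AA replicate 2, AA replicate 3 or DMSO replicate 3, and that of Gar1 without any library except DMSO replicate 3. Neither passed with library medians equalised (adjusted p = 0.145 for Nop10 and 0.0673 for Gar1), and Gar1 did not with the library-set term (adjusted p = 0.353). Nhp2, the remaining core protein, had 54.7, 49.5 and 66.1 CPM in AA and 48.5, 60.9 and 48.2 CPM in DMSO. The ranges of Nhp2 overlapped almost fully, with a log2 ratio of 0.11 (SE 0.16, adjusted p = 0.642).

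Factors of the small subunit were higher for 8 of 9 members. Nop14, a protein of the small subunit processome, had 32.8, 28.2 and 26.0 CPM in AA replicates 1 to 3, against 11.5, 14.1 and 13.7 CPM in DMSO replicates 1 to 3. Utp15, a processome protein that also acts in transcription of ribosomal DNA, had 26.3, 35.5 and 33.5 CPM in AA and 16.9, 13.2 and 14.8 CPM in DMSO. Utp14a, another processome protein, had 42.7, 35.6 and 50.8 CPM in AA and 15.2, 21.4 and 24.5 CPM in DMSO. AA and DMSO did not overlap for these 3 genes, whose log2 ratios were 1.09 (SE 0.18, adjusted p = 0.00147), 1.03 (SE 0.18, adjusted p = 0.00234) and 1.05 (SE 0.21, adjusted p = 0.00366). Utp14a no longer passed with the library-set term (adjusted p = 0.0940).

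Other small subunit factors had smaller log2 ratios. Rrp9, a protein of the box C/D particle that folds the precursor, and Rrp12, which acts in export of the subunits, had log2 ratios of 0.77 (adjusted p = 0.0143) and 0.74 (adjusted p = 0.0221). Pno1, which helps the last cut of the small subunit RNA, had a log2 ratio of 0.65 (SE 0.16, adjusted p = 0.0137). Wdr75 and Wdr43, which sit in the same early subcomplex as Utp15, had log2 ratios of 0.60 (adjusted p = 0.0342) and 0.55 (adjusted p = 0.0227). These 5 calls were lost with library medians equalised (adjusted p = 0.0605 to 0.170) and without AA replicate 3, except that of Pno1, which was lost without AA replicate 2. Those of Wdr43, Wdr75 and Rrp12 were also lost without AA replicate 2 or DMSO replicate 1, those of Wdr75 and Rrp12 without DMSO replicate 3, and that of Wdr75 without DMSO replicate 2. The library-set term gave log2 ratios of 0.91 for Rrp12, 0.52 for Pno1, 0.54 for Wdr75 and 0.39 for Wdr43, whose calls were lost. Rrp9, at 1.01, kept its call there. Rcl1, a processome protein related to RNA cyclases, did not pass, at 13.3 ± 2.16 CPM in AA and 11.9 ± 0.848 CPM in DMSO (log2 ratio 0.14, SE 0.20, adjusted p = 0.616).

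Factors of the large subunit were higher for 5 of 8 members. Noc2l, which acts in maturation and transport of the large subunit, had 86.1, 64.9 and 73.8 CPM in AA replicates 1 to 3, against 28.8, 44.0 and 43.3 CPM in DMSO replicates 1 to 3. Nop2, a methyltransferase of large subunit RNA, had 48.3, 49.6 and 54.6 CPM in AA and 27.9, 31.1 and 31.8 CPM in DMSO. Rrp1b, a nucleolar protein, had 21.4, 24.7 and 34.3 CPM in AA and 10.2, 13.4 and 15.4 CPM in DMSO. All 3 were without overlap, with log2 ratios of 0.95 (SE 0.19, adjusted p = 0.00377), 0.73 (SE 0.14, adjusted p = 0.00382) and 0.98 (SE 0.22, adjusted p = 0.00794). With the library-set term 0 of the 8 members passed (adjusted p = 0.0801, 0.0775 and 0.149 for these 3). Noc3l, a partner of Noc2l, had a log2 ratio of 0.63 (SE 0.17, adjusted p = 0.0163), lost without AA replicate 3 and with library medians equalised (adjusted p = 0.103).

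Pes1, Bop1 and Wdr12 form a complex that processes large subunit RNA, and their fold changes were close together. Pes1 had 60.5 ± 1.86 CPM in AA and 45.6 ± 1.72 CPM in DMSO, a log2 ratio of 0.40 (SE 0.13, adjusted p = 0.0376), and its call was lost without any library except DMSO replicate 2 and with library medians equalised (adjusted p = 0.431). Bop1 and Wdr12 did not pass, with log2 ratios of 0.38 (SE 0.16, adjusted p = 0.0853) and 0.41 (SE 0.17, adjusted p = 0.0918). Without DMSO replicate 2 Bop1 passed (0.47, limma adjusted p = 0.0495). Nop16, another large subunit factor, also did not pass (0.38, SE 0.19, adjusted p = 0.147). In all 4 genes every AA library lay above every DMSO library, as in 33.4% of all tested genes. Their log2 ratios exceeded the 0.21 of all genes by 0.17 to 0.21. With library medians equalised their log2 ratios were 0.13 to 0.16, and none passed (limma adjusted p = 0.431 to 0.577).

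Levels of different members were compared per kilobase of merged exons (GENCODE M21), a length that is too long where a gene has rarely used transcripts. In AA tubules the highest members were Npm1, Nhp2, Ncl and Nop10, with mean levels of 62.0, 49.5, 41.7 and 41.1 CPM per kb. In DMSO tubules these 4 genes also led, with 31.8 CPM per kb for Npm1, 45.9 for Nhp2, 21.3 for Ncl and 26.0 for Nop10. The lowest in AA was Wdr12, at 2.67 CPM per kb in AA and 1.97 in DMSO, and the lowest in DMSO was Gar1, at 3.21 CPM per kb in AA and 1.57 in DMSO. Myc had a level of 12.2 CPM per kb in AA and 2.02 CPM per kb in DMSO.

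A feature that the choice of members did not use is the snoRNA genes that lie inside some of them. In GENCODE M21, 6 of the 36 members (16.7%) held at least 1 snoRNA gene on their own strand, against 218 of 13871 tested genes (1.57%). These hosts were Ncl, Gnl3, Dkc1, Nop56, Nop58 and Wdr43. All 6 were higher in AA, with a median log2 ratio of 1.18, and of the other 30 members 21 were higher, with a median of 0.73. Of all 36 members 75% were higher, and the share of the 218 tested hosts called higher was not counted. The call of Wdr43 was lost with library medians equalised (limma adjusted p = 0.148). Under the library-set term the calls of Wdr43 (log2 ratio 0.39) and Dkc1 (log2 ratio 0.76) were lost. Exons of 16 members overlap exons of a gene on the opposite strand, by 5 to 598 bases: Polr1a, Gnl3, Mybbp1a, Dkc1, Nhp2, Nop56, Wdr43, Utp14a, Nop14, Rrp9, Pno1, Bop1, Pes1, Wdr12, Noc2l and Rrp1b. The strand setting of the counting is not given in the sources used here, so reads from these short overlaps may come from either gene.

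Lists of genes of the same steps outside the module were written from general knowledge, with earlier results of these data known. They are therefore no independent check of the members. Their genes were called higher more often than lower, as were all tested genes (22.3% and 8.66%). Higher values were called for 65 of 116 tested and lower values for 0, while 51 missed the threshold, and the median log2 ratio was 0.56; 0 were lower at an unadjusted p under 0.05 or in voom. The large subunit list had 30 of 51 higher, led by Mak16, a factor of early large subunit particles, at 34.5 ± 4.61 CPM in AA and 8.49 ± 0.931 CPM in DMSO (log2 ratio 1.90, SE 0.19, adjusted p = 7.04e-05). Nol8 (1.16), Ftsj3 (0.95) and Gnl2 (0.97) followed in order of adjusted p. In the small subunit list 25 of 44 were higher, among them Tsr1 (1.27, adjusted p = 0.000696), Cirh1a (1.14), Utp3 (1.13) and Imp4 (0.86). The RNA polymerase I list had 6 of 11 higher, led by Taf1d and Taf1a, subunits of its promoter factor, at 0.85 each, with Ttf1, the termination factor (0.68), and Twistnb, a polymerase subunit (0.77). Of 10 snoRNP assembly genes 4 were higher, Nhp2l1 (0.85), Nufip1 (0.76), Naf1 (0.56) and Znhit6 (0.75).

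Of all tested genes 22.3% were called higher in the fit described and 12.1% with library medians equalised. Their share with the library-set term stands with the counts of the members above. The count of these 116 genes called higher changed with scaling and with single libraries. It was 29 with library medians equalised, 33 after quantile normalization, 35 with TMM factors and 13 with the library-set term, and 41 without AA replicate 2 and 37 without AA replicate 3. In the RNA polymerase I and snoRNP assembly lists 0 genes passed under equalised medians, and 0 passed with the library-set term.

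**Figure D3:**
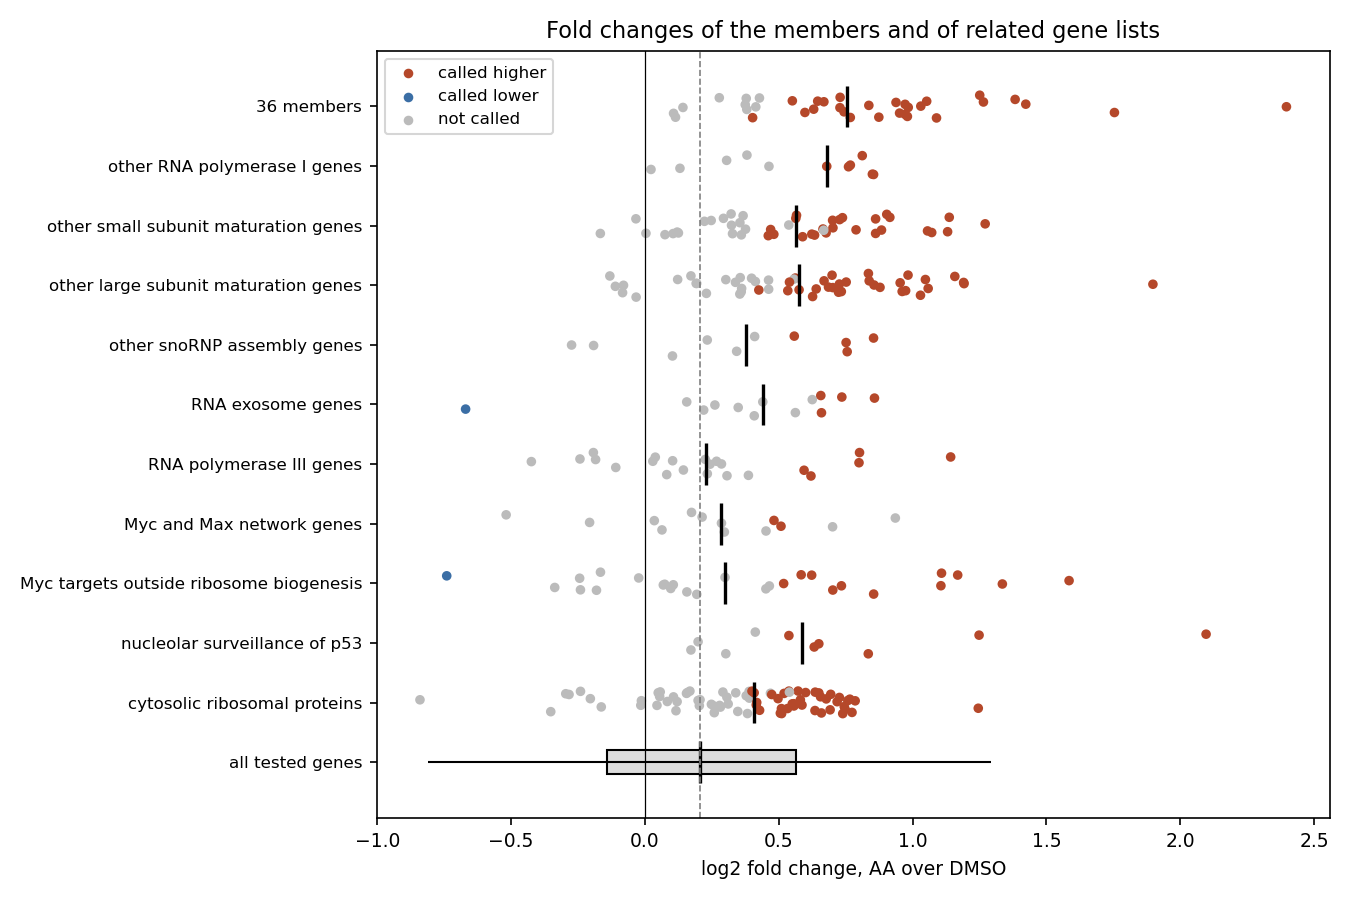
Log2 ratio, AA over DMSO (horizontal axis), of each tested gene of the module and of related lists, with a bar at each median and colours for genes called higher, lower or neither; the box at the bottom spans the 25th to 75th percentile of all tested genes and its line the 5th to 95th, and the dashed line marks their median of 0.21. Medians run from 0.76 for the members to 0.23 for RNA polymerase III genes.

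Neighbouring machinery had lower medians than the members. For its counts, 22.3% of all tested genes were called higher and 8.66% lower. Of 22 genes of RNA polymerase III, which makes transfer RNAs and the smallest ribosomal RNA, 5 were higher and 0 were lower (1 at an unadjusted p under 0.05, 0 in voom), with a median log2 ratio of 0.23, near that of all genes. Equalising the medians gave 3 higher and 3 lower, with a median of -0.016; the lower genes were the polymerase subunit genes Polr3a and Polr3b and Maf1, which encodes a repressor of the polymerase. The leading genes of the list were Gtf3c4 (0.80, adjusted p = 0.00326), Polr3d (1.14), Gtf3c1 (0.80) and Polr3f (0.59), of which Polr3f lost its call under equalised medians, under the library-set term, and without AA replicate 2 or AA replicate 3. Of 13 genes of the RNA exosome, which trims precursors, 4 were higher and 1 was lower, with a median of 0.44. Higher calls numbered 1 under equalised medians and 0 under the library-set term. The higher genes included Exosc8 (0.86), Exosc5 (0.74) and Exosc2 (0.66). Under equalised medians Exosc5 (adjusted p = 0.0666) and Exosc2 (adjusted p = 0.0782) did not pass. The call of Exosc8 was lost without AA replicate 2, that of Exosc5 without AA replicate 3, and that of Exosc2 without AA replicate 2, AA replicate 3 or DMSO replicate 1. The lower gene was Skiv2l2, the helicase that feeds RNA to the exosome, at 80.1 ± 5.54 CPM in AA and 128 ± 1.73 CPM in DMSO (log2 ratio -0.67, SE 0.12, n = 3 each, adjusted p = 0.00277, or 0.0522 with the library-set term).

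Of 77 tested genes of cytosolic ribosomal proteins 38 were higher and 0 were lower (0 at an unadjusted p under 0.05, 0 in voom). Over all tested genes the shares were 22.3% and 8.66%. The median log2 ratio of these 77 genes was 0.41. The count of them called higher was 9 after library medians were equalised, and their median was 0.50 with the library-set term. Of these 77 genes 9 had a log2 ratio below 0, the lowest at -0.84, and 3 were called lower without DMSO replicate 3. The genes with the smallest adjusted p were Rpl12 (1.25), Rpl15 (0.79), Rpl7 (0.77) and Rps3 (0.69). Ribosomal protein genes have many processed pseudogenes that can share their reads, so these levels are uncertain to that extent.

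Of known Myc targets outside ribosome assembly 40.7% were called higher, against 22.3% of all tested genes, of which 8.66% were lower. Higher values were called for 11 of 27 tested, a lower value for 1, and 15 missed the threshold; the median log2 ratio was 0.30, against 0.21 for all genes. Cad, the enzyme that starts pyrimidine synthesis, had 67.3 ± 4.05 CPM in AA and 21.9 ± 3.29 CPM in DMSO (log2 ratio 1.58, SE 0.16, adjusted p = 7.06e-05). Pa2g4, a growth regulator found in the nucleolus, the translation helicase gene Eif4a1 and the cyclin gene Ccnd2 had log2 ratios of 1.34, 1.11 and 1.11. Shmt2 was the lower gene. It encodes the mitochondrial enzyme that splits serine into glycine and a carbon unit, and had 147 ± 7.97 CPM in AA and 248 ± 33.8 CPM in DMSO (log2 ratio -0.74, SE 0.14, adjusted p = 0.00277, or 0.0624 with the library-set term). With library medians equalised 7 of the 27 were higher and 4 lower.

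Genes that link the nucleolus to p53 were higher for 6 of 10 tested, against 22.3% of all tested genes. Lower values were called for 0 (0 at an unadjusted p under 0.05, 0 in voom), against 8.66%. After the medians were equalised 2 were higher, Mdm2 and Trp53, and with the library-set term 3. Mdm2, the ligase that degrades p53, and Trp53 itself had log2 ratios of 2.10 and 1.25 (adjusted p = 1.82e-05 and 0.000237), and Cdkn1a, the cell cycle inhibitor that p53 induces, had 6.64 (adjusted p = 8.87e-07). Rpl11 and Rpl5, the ribosomal proteins known to bind Mdm2, had 88.1 ± 8.47 and 51.6 ± 8.01 CPM in AA, against 56.2 ± 10.7 and 34.9 ± 1.90 CPM in DMSO. Their log2 ratios were 0.65 (SE 0.16, adjusted p = 0.0114) and 0.54 (SE 0.16, adjusted p = 0.0252), and neither passed once DMSO replicates 1 and 2 had their own term (adjusted p = 0.291 and 0.201) or without AA replicate 2. The call of Rpl5 was also lost without AA replicate 3 or DMSO replicate 2. Rps27l, a ribosomal protein gene that p53 induces, had 0.83 (adjusted p = 0.0146), and Hexim1, which can bind nucleophosmin, had 0.63 (adjusted p = 0.0182); the first was lost without AA replicate 2, the other without AA replicate 3 or DMSO replicate 1 and with the library-set term (adjusted p = 0.100). Under equalised medians the adjusted p was 0.0760 for Rpl11, 0.186 for Rpl5, 0.0747 for Rps27l and 0.112 for Hexim1.

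Some markers of other cells were called higher in AA, beside 22.3% of all tested genes. Their part in the results of the module was not tested. Collecting duct markers were higher for 3 of 9 tested and summed to 47.9 to 100 CPM in AA libraries and 18.4 to 35.9 CPM in DMSO libraries. Markers of the thick ascending limb and distal convoluted tubule were higher for 2 of 7 and summed to 348 to 1389 CPM in AA and 238 to 533 CPM in DMSO, with the highest sum in AA replicate 2. Stromal markers were higher for 3 of 7 (171 to 198 CPM in AA and 89.6 to 134 CPM in DMSO). Endothelial markers were higher for 3 of 7 (273 to 310 CPM in AA and 169 to 252 CPM in DMSO) and leukocyte markers for 4 of 9 (231 to 306 CPM in AA and 217 to 322 CPM in DMSO). The sums of AA and DMSO libraries overlapped for leukocytes and for the thick ascending limb and distal convoluted tubule. With library medians equalised, higher calls numbered 2 for collecting duct, 1 for limb and distal tubule, and 2 each for stroma, endothelium and leukocytes. In that fit 1 leukocyte marker was lower, and 12.1% of all tested genes were higher.

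No marker of dividing cells was called higher by limma, which called 22.3% of all tested genes higher and 8.66% lower. Of 7 tested 0 were higher (1 at an unadjusted p under 0.05, 0 in voom) and 1 was lower, and the 11 markers together summed to 15.5 to 20.3 CPM in AA libraries and 16.3 to 26.8 CPM in DMSO libraries. Mki67 had 2.76 ± 1.53 CPM in AA and 2.03 ± 0.533 CPM in DMSO (log2 ratio 0.25, SE 0.32, adjusted p = 0.573). Bub1 was at 0 in 2 of 3 AA libraries and 2 of 3 DMSO libraries. The lower gene was Cenpe, a mitotic kinesin (log2 ratio -1.59, SE 0.30, adjusted p = 0.00332).

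**Figure D4:**
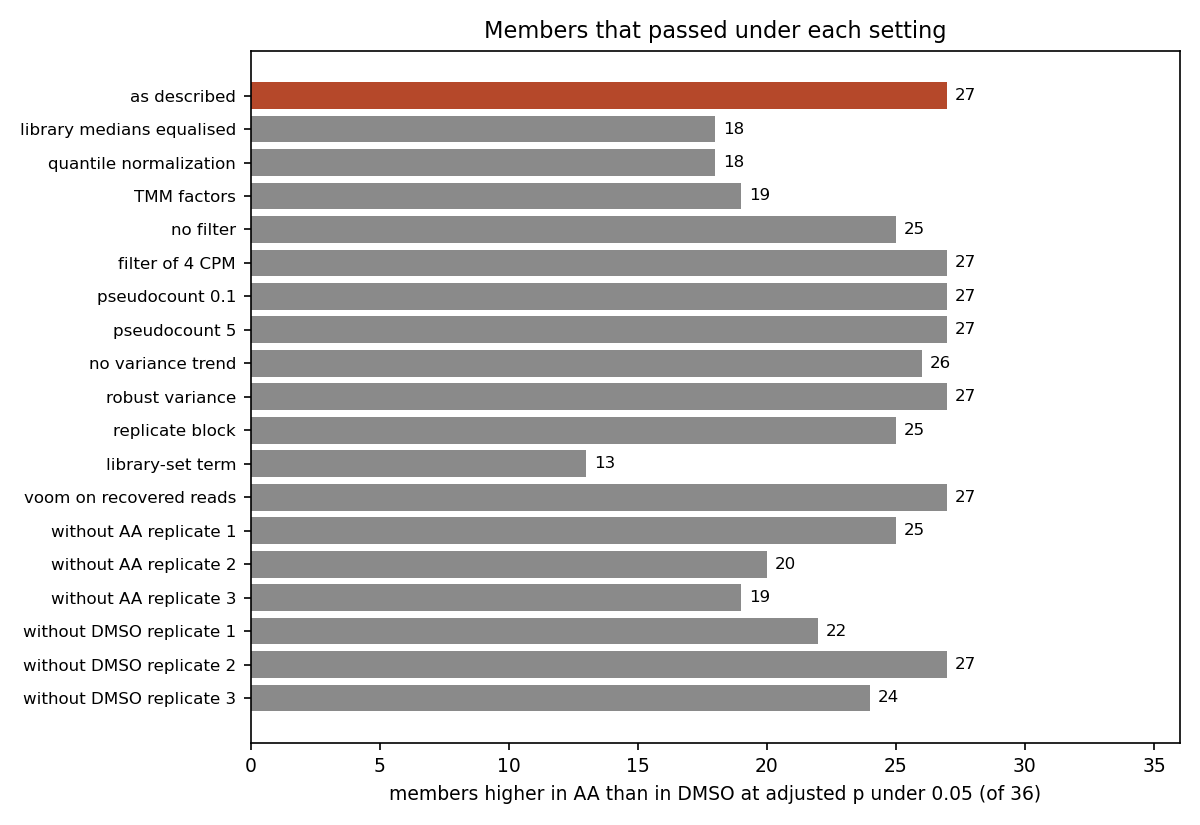
Number of the 36 members called higher in AA (horizontal axis) in the fit described and under each of 18 alternatives, 1 bar each. The count is 27 in the fit described, 18 to 19 when libraries are rescaled and 13 with the library-set term.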

How the data were processed

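RNA was isolated with PicoPure and turned into TruSeq Stranded mRNA libraries, per the labels' protocols. Per the submitters' processing notes, bcl2fastq 2.19 and kallisto (no version or role) were used with build mm10; the annotation, the strand setting and the step from transcripts to genes are not stated there. Log10 values were deposited by the authors in 1 table. Undoing the logarithm and taking away 1 gave columns that each sum to 1000000, so the deposited values are log10(CPM + 1). Whole reads were recovered for 100% of values within 0.1 read. Values were logged again as log2(CPM + 1); the test design had assumed log CPM without naming the base.

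limma 3.58.1 in R 4.3.3 was used with a variance trend, two-sided, on 14311 genes (at least 1 CPM in at least 3 libraries), and checked on simulated data. A pseudocount of 1 understates changes of low genes. SE stands for limma's moderated standard error of a log2 ratio. The 3 AA and 3 DMSO libraries were compared; exact permutation of 3 against 3 cannot give a two-sided p below 0.1 and was not used. The members and the 10 lists were chosen with earlier results of these data known. Every member may be named; of each list the text names up to 4 genes with the smallest adjusted p and called genes of the rarer direction, and others it names were chosen after their values were seen. Alternatives were 3 other scalings, filters of 4 CPM and none, pseudocounts of 0.1 and 5, other variance models, a replicate block, the library-set term, voom on recovered reads and each library left out. Gene models came from GENCODE M21 and promoters from RefSeq (GRCm38.p6).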

Additional observations from a re-analysis of the deposited data

How the results depend on the processing

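The log2 ratio of Myc kept its direction and its call under all 18 alternatives, from 1.85 with a pseudocount of 5 to 2.65 in voom. The median log2 ratio of the members was 0.51 with library medians equalised, 0.51 after quantile normalization, 0.55 with TMM factors and 0.64 with a pseudocount of 5, and 0.70 to 0.85 when a library was left out. Members called higher numbered 13 with the library-set term, and 19 to 27 when a library was left out. Other ribosome biogenesis genes called higher numbered 29, 33 and 35 in these 3 scalings and 13 with the library-set term, and 37 to 58 when a library was left out. Of all tested genes 4426 were called, 1481 with the library-set term and 2645 to 3980 when a library was left out. Members and other ribosome biogenesis genes called lower numbered 0 throughout, whichever library was left out. The library-set term leaves 1 control library behind the AA effect; the cause of the other differences was not tested.

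With library medians equalised, after quantile normalization and with TMM factors the log2 ratio turned to -0.14, -0.065 and -0.10 for Polr1a, to -0.15, -0.075 and -0.11 for Nhp2, and to -0.10, -0.15 and -0.0597 for Rcl1. When a library was left out, that of Nhp2 ran from -0.0061, without AA replicate 3, to 0.22. Outside the module, Mycl was -0.045 after quantile normalization and -0.47 with the library-set term, and Mycn was -0.070 with that term. Mki67 was -0.078 after quantile normalization, and ran from -0.058, without AA replicate 1, to 0.48 when a library was left out. Over the 93 tested genes other than Myc that the naming rule or the text picks, 15 values in all were reversed, those just given, 188 kept their direction and lost their call, 17 gained one and 1450 stayed on the same side. With the replicate block 25 members and 58 other ribosome biogenesis genes were called higher, 3813 genes were called in all, and the log2 ratio of Myc was 2.40. Libraries of the same number deviated from their group means with correlations of -0.11, -0.16 and -0.02, and those of different numbers with -0.07 to 0.19. These values gave no sign of pairing by number, but with 3 libraries per group they cannot exclude it. Single libraries of 13304877 reads make 1 read 0.0752 CPM, which limits low genes such as Gar1.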

Other observations

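Protein synthesis genes outside the nucleolus were looked at after the lists above, chosen by symbol after those values were seen. Beside their counts, 22.3% of all tested genes were called higher and 8.66% lower. Of 77 genes of mitochondrial ribosomal proteins 12 were higher in AA and 0 were lower (2 at an unadjusted p under 0.05, 0 in voom), with a median log2 ratio of 0.17, against 0.21 for all tested genes. With library medians equalised 2 were higher and 9 lower. Mrps17 had 71.1 ± 14.5 CPM in AA and 34.7 ± 0.899 CPM in DMSO (log2 ratio 0.99, SE 0.17, n = 3 each, limma adjusted p = 0.00181). Mrpl10 had a log2 ratio of 0.66 (adjusted p = 0.00636).

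Of 55 genes whose symbols start with Eif, which name translation factors and their regulators, 19 were higher and 1 was lower, with a median of 0.33. With library medians equalised 8 were higher and 3 lower. Eif6, which is also in the list of other large subunit genes and keeps that subunit from joining the small subunit too early, had 105 ± 10.1 CPM in AA and 51.4 ± 11.7 CPM in DMSO (log2 ratio 1.03, SE 0.17, adjusted p = 0.00148). The lower gene was Eif4g3, a scaffold of the cap-binding complex, at 218 ± 23.4 CPM in AA and 390 ± 59.0 CPM in DMSO (log2 ratio -0.83, SE 0.15, adjusted p = 0.00273).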
